A study of Papio anubis with 25 samples.

Results

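The genes described here are 33 symbols of B and T lymphocytes, of which 31 had a row in the deposited abundance table of 21287 genes, and they were followed across all 25 libraries by tissue. ZAP70 and LTB were not matched to a row and are not analysed here. Of the 31, 10 are T cell genes, 10 are B cell genes, 3 direct lymphocytes into follicles and T cell zones, and 8 are carried by B cells, T cells and in part by other leukocytes. RNA was taken from thin sections of flash-frozen parotid, submandibular and sublingual salivary gland, pancreas and liver of 5 olive baboons (Papio anubis), each animal giving 1 library per tissue. Baboon 5 was the single male beside 4 females (baboons 1 to 4), no treatment is named, and the labels used here give no age. The series was built to compare salivary glands with pancreas, and pancreas with liver, within animals. A level is in TPM, the abundance of a gene's transcripts relative to all transcripts of its library, which add up to about 1000000, corrected for transcript length. Each library's depth is unknown, so the spread over animals (SD, n = 5 per tissue) is the error given throughout.

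T cells recognise antigen through a receptor that signals by the CD3 chains and the kinase LCK, and B cells recognise it through membrane immunoglobulin that signals by CD79A and CD79B. In lymph nodes and other lymphoid tissue the chemokine CXCL13 draws B cells with the receptor CXCR5 into follicles, while CCL19 and CCL21 draw cells with CCR7 into T cell zones. Salivary glands hold scattered lymphocytes and many IgA-secreting plasma cells, the parotid normally encloses small lymph nodes within its capsule, and the liver holds resident and circulating lymphocytes.

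The sections were not alike in what they held. The water channel gene AQP5, a gene of salivary secretory cells, was at 2.25 and 3.64 TPM in the parotids of baboons 2 and 5 and at 2.61 and 3.78 TPM in the sublingual glands of baboons 2 and 4, none of them above the highest liver library (3.90 TPM). Summed adipocyte genes reached 21274 TPM in the parotid of baboon 2, summed skeletal muscle genes 97058 TPM in the sublingual library of baboon 2, and summed stratified mucosa genes 77038 and 18583 TPM in the sublingual glands of baboons 1 and 4. The 6 pancreatic acinar genes summed to 150059 to 189806 TPM in the pancreas and to at most 3502 TPM elsewhere, and 6 hepatocyte genes to 42529 to 72913 TPM in the liver and to at most 1094 TPM elsewhere. The parotid library of baboon 5 stood apart for the lymphocyte genes themselves, and the results below are given with and without it where they rest on it.

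The parotid library of baboon 5 held the highest value of all 25 libraries for 31 of 31 lymphocyte genes. Of the 14991 genes whose mean reached 1 TPM in some tissue, 21.6% had their highest value in that library. Its value was at least 5 times that of the next library for 25 of the 30 lymphocyte genes that were above 0 elsewhere, and the same held for 2.34% of the 14991 genes. Of those 30, however, 7 passed the filter only through this library, and of the 23 that passed without it, 18 met that mark (1.46% of the 14686 genes that passed with and without it). The ratio to the next library ran from 1.81 for FCER2 to 27.2 for CR2, with a median of 8.88. The next library was the sublingual library of baboon 1 for 12 genes and the submandibular library of baboon 2 for 9. TCL1A, an activator of AKT signalling in immature B cells, was at 0.417 TPM there and listed at 0 in the other 24 libraries.

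The summed lymphocyte genes gave 43.8, 439, 244, 14.7 and 5278 TPM in the parotid libraries of baboons 1 to 5, 22.2, 737, 84.8, 61.9 and 151 TPM in the submandibular libraries, and 446, 114, 358, 114 and 457 TPM in the sublingual libraries. They gave 41.8, 82.4, 55.1, 41.2 and 56.8 TPM in the pancreas and 121, 116, 189, 149.8 and 170.5 TPM in the liver. The 3 glands thus varied far more between animals than the other tissues did. The highest animal was above the lowest by 360.1 times in the parotid (30.0 times without baboon 5), 33.2 times in the submandibular gland, 4.00 times in the sublingual gland, 2.00 times in the pancreas and 1.63 times in the liver. In bulk RNA fewer lymphocytes and less RNA per lymphocyte cannot be told apart, and neither can a region of a gland and the animal it came from, since each gland of each animal gave 1 library.

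**Figure D1:**
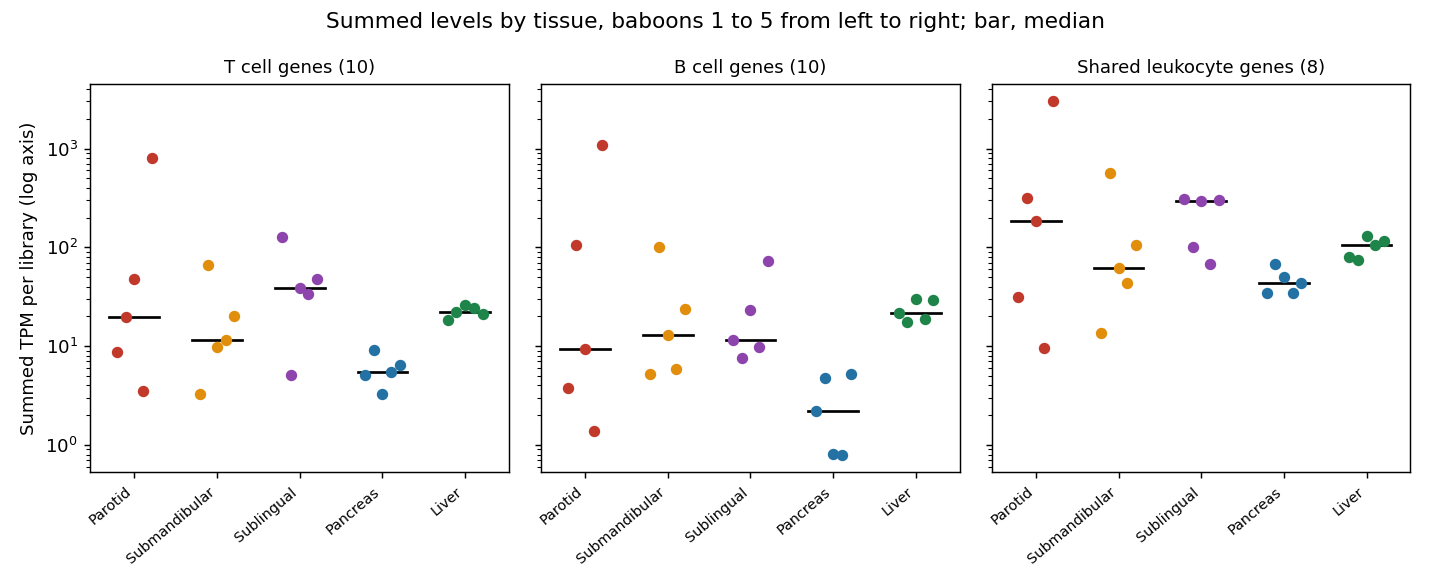
Summed TPM per library of 10 T cell, 10 B cell and 8 shared leukocyte genes (3 panels) on a log axis, by tissue, with 1 point per animal and a bar at the median of each tissue. The 5 liver libraries lie close together, while the parotid and submandibular libraries spread widely and 1 parotid library, of baboon 5, lies above all others for each sum of lymphocyte genes.

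Among the genes of the T cell receptor, the CD3 chains and LCK moved together from library to library. CD3E, the epsilon chain through which the receptor signals, was at 2.92, 7.03, 15.0, 1.03 and 278 TPM in the parotid libraries of baboons 1 to 5, at 1.26, 31.2, 2.89, 4.01 and 6.13 TPM in the submandibular libraries, and at 42.7, 2.12, 9.24, 2.67 and 8.77 TPM in the sublingual libraries. It was at 1.74, 2.63, 0.822, 1.68 and 1.69 TPM in the pancreas and at 6.10, 8.98, 7.40, 8.04 and 4.2 TPM in the liver. The pancreas libraries lay below all 5 liver libraries, while each gland overlapped both. CD3D, the delta chain, ranged from 0.239 to 17.1 TPM over the other 14 gland libraries against 174 TPM in the parotid of baboon 5, and CD3G, the gamma chain, from 0.141 to 7.84 TPM against 67.3 TPM. LCK, the kinase that phosphorylates the CD3 chains, ranged from 0.247 to 8.72 TPM in those 14 libraries and reached 87.7 TPM in the parotid of baboon 5.

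A further 6 T cell genes code for surface proteins: the adhesion receptor CD2, the receptors CD5 and CD6, the costimulatory receptor CD28, the ligand CD40LG that T cells present to B cells, and the interleukin-7 receptor chain IL7R. In the parotid library of baboon 5 they were at 41.9, 31.2, 45.4, 19.5, 17.1 and 39.1 TPM in that order. Over the other 14 gland libraries CD28 did not exceed 2.28 TPM and CD40LG did not exceed 1.43 TPM. IL7R was highest there in the sublingual library of baboon 1, at 6.90 TPM, and CD5 too, at 7.14 TPM. The sublingual library of baboon 1 was the second highest for all 4 genes of the receptor group, with CD8A, the co-receptor chain of cytotoxic T cells, at 22.4 TPM there (chosen after its value was seen). That library also held KRT13, a keratin of stratified mucosa, at 50365 TPM, and the part of mucosa in its T cell levels was not tested.

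The genes of the B cell receptor and surface were led by the same library, above the next one by 1.81 times for FCER2 to 27.2 times for CR2. CD79A, a signalling chain of the receptor, was at 1.21, 1.69, 4.35, 0.229 and 338 TPM in the parotid libraries of baboons 1 to 5, at 3.63, 12.2, 5.73, 3.26 and 5.05 TPM in the submandibular libraries, and at 2.19, 0, 4.23, 1.58 and 35.7 TPM in the sublingual libraries. It was at 0.124, 0.953, 0, 0.0812 and 1.82 TPM in the pancreas and at 2.69, 4.64, 3.58, 3.74 and 4.41 TPM in the liver. Again no pancreas library reached a liver library, and no pancreas library reached a submandibular library. CD79B, the partner chain, had the same order of its highest 3 libraries: the parotid and sublingual libraries of baboon 5 and the submandibular library of baboon 2, at 292, 19.8 and 13.6 TPM.

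MS4A1 codes for CD20, a surface protein that mature B cells carry and plasma cells lack. It was at 0.0450, 0, 0.0345, 0 and 58.4 TPM in the parotid libraries of baboons 1 to 5, at 0, 6.37, 0.0961, 0.105 and 0.206 TPM in the submandibular libraries, and at 0, 0, 2.04, 0.426 and 3.54 TPM in the sublingual libraries. In the pancreas it was at 0, 0.172, 0, 0 and 0.138 TPM and in the liver at 0.205, 0.344, 0.194, 0.223 and 0.294 TPM. Thus 4 of the 25 libraries were above 1 TPM for MS4A1, namely the parotid and sublingual libraries of baboon 5, the submandibular library of baboon 2 and the sublingual library of baboon 3. In the submandibular libraries of baboons 1, 3, 4 and 5 CD79A was at 3.26 TPM or more with MS4A1 at 0.206 TPM or less, and JCHAIN, the joining chain of IgA made by plasma cells, was at 718 to 1100.1 TPM in those libraries. The part of plasma cells in the CD79A level was not tested.

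Of the other surface genes of B cells, CR2, CD22 and BLK were below 5 TPM outside the parotid library of baboon 5, while FCER2 reached 101 TPM outside it. CR2, the complement receptor of B cells and follicular dendritic cells, was at 48.7 TPM in that library, at 1.79 TPM in the sublingual library of the same animal and at 0.452 TPM or less in the other 23. The receptor-associated kinase gene BLK was at 116 TPM in it, at 4.49 TPM in the sublingual library of baboon 5, at 1.84 TPM in the submandibular library of baboon 2 and at 1.15 TPM in the liver library of baboon 5. CD22, an inhibitory co-receptor of B cells, was at 24.8 TPM in the parotid of baboon 5 and next in the liver, at 0.410, 1.15, 1.04, 0.594 and 2.89 TPM for baboons 1 to 5. The transcription factor genes PAX5 and POU2F2 of the B lineage reached 8.28 and 16.0 TPM there and at most 1.03 and 1.64 TPM in the other 14 gland libraries.

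The genes of lymphoid homing were CXCL13, CXCR5 and CCR7. CXCL13, the B cell attracting chemokine of follicles, was at 0, 0.592, 0, 0 and 309 TPM in the parotid libraries of baboons 1 to 5, at 0, 0, 0.118, 0.522 and 0.596 TPM in the submandibular libraries and at 0, 0, 1.35, 1.51 and 30.1 TPM in the sublingual libraries. It was at 0, 0.549, 0.218, 0 and 1.38 TPM in the pancreas and at 0.304, 0, 0, 0 and 0.627 TPM in the liver. Its receptor gene CXCR5 was at 25.4 TPM in the parotid of baboon 5, at 3.65 TPM in the submandibular library of baboon 2 and at 0.771 TPM or less in the other 23. CCR7, the receptor for the T zone chemokines, was at 49.5 TPM in the parotid of baboon 5 and at 1.04, 1.93, 2.88, 0.186 and 4.16 TPM in the liver.

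The 8 genes shared with other leukocytes carried most of the summed level, and CD52, a small glycoprotein of lymphocytes and monocytes, carried 28.9% to 82.6% of the sum over all 31 genes in a library. CD52 was at 22.1, 236, 136, 5.49 and 2025 TPM in the parotid libraries of baboons 1 to 5, at 7.45, 445, 46.5, 30.7 and 83.7 TPM in the submandibular libraries and at 234, 94.2, 256, 54.3 and 239 TPM in the sublingual libraries. It was at 13.5, 29.0, 26.6, 11.9 and 27.5 TPM in the pancreas and at 50.6, 45.9, 96.9, 70.0 and 79.8 TPM in the liver. PTPRC, the CD45 phosphatase of leukocytes, reached 89.9 TPM in the parotid of baboon 5 and lay between 0.334 and 8.66 TPM in the other 14 gland libraries. CD48, a ligand of lymphocyte adhesion receptors, reached 145 TPM against 0.680 to 18.6 TPM, and CD27, a costimulatory receptor of T and memory B cells, 93.9 TPM against 0.305 to 6.33 TPM. The lymphoid transcription factor genes IKZF1 and IKZF3 reached 30.3 and 13.3 TPM against at most 3.20 and 1.32 TPM.

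Most other genes of lymphocytes and lymphoid tissue were also highest in the parotid library of baboon 5. Of 21 other T cell genes 20 had their highest value there, FOXP3 being the exception, and of 18 other B cell genes 16 had, CD24 and EBF1 being the exceptions. So had 5 of 7 germinal centre and follicular dendritic genes (not BCL6 and FDCSP) and 7 of 9 genes of lymphoid stroma and homing (not CHST4 and S1PR1). The summed germinal centre and follicular dendritic genes were highest elsewhere, at 2705 TPM in the sublingual gland of baboon 3 against 523 TPM, with FDCSP alone at 2698 TPM in the former. LAT, an adaptor of T cell receptor signalling, was at 255 TPM there, CD7, a T cell surface protein, at 160.3 TPM, CD247, the zeta chain of the receptor, at 156 TPM, the GTPase gene RHOH at 92.2 TPM, and FCMR, the receptor for IgM, at 147 TPM. The T zone chemokine genes CCL21 and CCL19 were at 2515 and 1213 TPM. High there too were 2 genes chosen after their values were seen. MARCO, a scavenger receptor of macrophages, was at 350.4 TPM against at most 4.22 TPM in the other 24 libraries. The plasma cell gene MZB1 was at 421 TPM. The summed macrophage and monocyte genes, however, peaked in the sublingual gland of baboon 5, with 17416 TPM against 2115 TPM. So did the summed plasma cell genes, with 9304 TPM against 3462 TPM. Only 4 of 13 macrophage and monocyte genes and 6 of 9 plasma cell genes were highest in the baboon 5 parotid library. The summed salivary genes were at 4640 TPM in this library, and BPIFA2, a secreted salivary protein, was at 1108 TPM there against 507 to 19382 TPM in the other parotid libraries.

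The parotid and submandibular libraries of baboon 2, both high in lymphocyte genes, held genes of other tissue too. The submandibular library of baboon 2, second among all libraries with 737 TPM of summed lymphocyte genes, held MS4A1, CXCR5 and CCR7 at 6.37, 3.65 and 3.52 TPM, and CCL21 at 358 TPM. Its summed adipocyte genes were at 2775 TPM, its HBB, the beta chain of haemoglobin, at 5996 TPM, and its summed salivary genes at 2258 TPM, against 44509 TPM or more in the other 4 submandibular libraries. The parotid library of baboon 2 held CCL21 at 535 TPM and C1QA, a complement gene of macrophages, at 469.6 TPM, while its CXCL13 was at 0.592 TPM and its MS4A1 was listed at 0. The part of adipose tissue, blood and macrophages in the lymphocyte gene levels of the baboon 2 libraries was not tested. The parotid library of baboon 3, at 244 TPM of summed lymphocyte genes, held summed adipocyte genes at 64.5 TPM and summed salivary genes at 8589 TPM.

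B and T cell genes did not keep one ratio between libraries. The sum of CD79A and CD79B over the sum of the CD3 chains was 0.399, 0.258, 0.224, 0.408 and 1.21 in the parotid libraries of baboons 1 to 5, 2.51, 0.586, 1.66, 0.638 and 0.551 in the submandibular libraries and 0.0665, 0.664, 0.531, 0.389 and 1.78 in the sublingual libraries. It was 0.112, 0.375, 0, 0.0257 and 0.746 in the pancreas and 0.344, 0.466, 0.328, 0.366 and 0.587 in the liver. The ratio was above 1 in 4 libraries, all of glands, and lowest among the glands in the sublingual library of baboon 1, where CD3 chains were at 67.6 TPM and CD79 chains at 4.49 TPM. In each of parotid, sublingual gland, pancreas and liver the highest ratio was that of baboon 5, and in the submandibular gland that animal had the lowest.

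**Figure D2:**
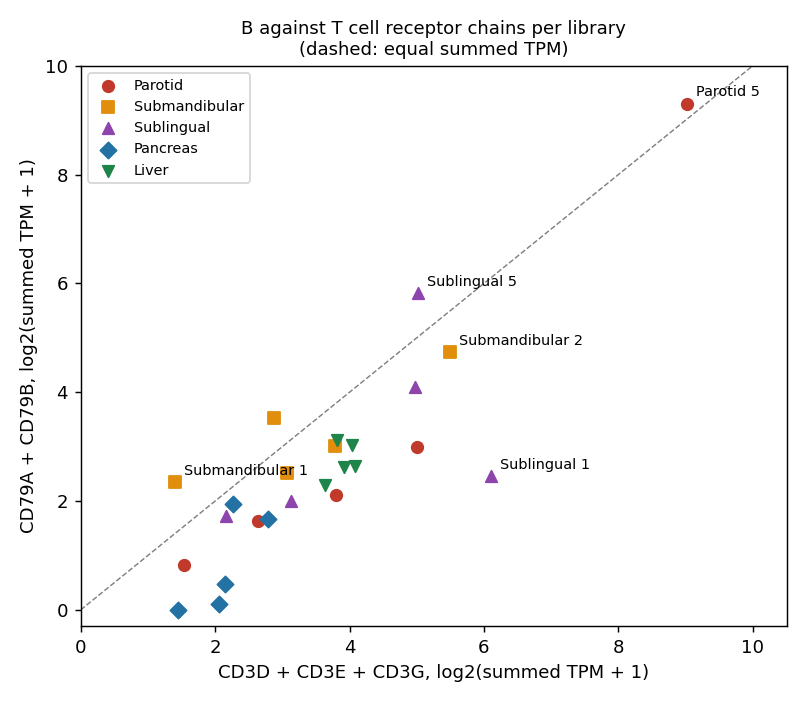
Summed CD79A and CD79B against summed CD3D, CD3E and CD3G, both as log2(summed TPM + 1), with 1 point per library and the dashed line at equal levels. The parotid library of baboon 5 is far above the rest on both axes, and 4 libraries lie above the line.

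Differences between tissues were tested with limma on log2(TPM + 1) in 1 model of all 25 libraries with terms for tissue and animal, and p-values were adjusted over the 14991 genes by Benjamini-Hochberg. Called genes had an adjusted p under 0.05 and a log2 fold change of 1 or more in either direction. Of the 31 lymphocyte genes 30 entered (TCL1A did not), 7 of them (CD28, CD40LG, CR2, PAX5, POU2F2, CXCR5 and IKZF3) only through the parotid library of baboon 5. The calls were 1 of 30 for sublingual gland against pancreas (all genes 9.47%), 1 of 30 for pancreas against liver (17.5%), and 0 of 30 for parotid against pancreas (3.82%), submandibular gland against pancreas (4.08%), parotid against liver (13.8%), submandibular gland against liver (16.5%) and sublingual gland against liver (15.4%). Between glands the calls were 0 of 30 for parotid against submandibular gland (all genes 0%), parotid against sublingual gland (0.113%) and submandibular against sublingual gland (0.0667%). At an unadjusted p under 0.05, limma gave 16 of 30 for parotid against pancreas (all genes 18.5%), 1 for submandibular gland against pancreas (12.2%), 7 for sublingual gland against pancreas (31%), 2 for pancreas against liver (28.9%) and 1 for sublingual gland against liver (27.8%). At that level it gave 0 of 30 for parotid against liver (all genes 25.6%), submandibular gland against liver (28.2%), parotid against submandibular gland (1.69%), parotid against sublingual gland (9.13%) and submandibular against sublingual gland (14.1%).

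FCER2, the low-affinity IgE receptor of B cells and some other leukocytes, was lower in the pancreas than in the liver and was the 1 lymphocyte gene called there. FCER2 was at 0.950, 1.58, 0.552, 0.559 and 0.966 TPM in the pancreas of baboons 1 to 5 and at 16.3, 8.12, 22.8, 11.7 and 15.8 TPM in the liver, with means of 0.922 ± 0.421 and 14.9 ± 5.51 TPM (SD, n = 5). The pancreas mean was under the filter of 1 TPM, so FCER2 entered the test only through tissues where it was higher. In the fit with that filter the call is thus not independent of it. Without the filter FCER2 was called too (all genes 12%). FCER2 was lower in the pancreas of 5 of 5 animals, by limma with a log2 fold change of -3.01 (SE 0.92, adjusted p = 0.0232). By limma without the animal as a block the adjusted p was 0.0553. Without baboon 1, 3 or 4 it was 0.0682, 0.119 or 0.0597, so the call was lost without any of these animals. The share of all genes called fell too, from 17.5% to 12.8%, 11.4% and 12.8% without baboon 1, 3 or 4. The levels of the 5 pancreas libraries did not overlap those of the 5 liver libraries, and lay below them, for 18 of the 30 genes, as for 32.9% of all genes tested. These 18 include CD3D, CD3E, CD3G, LCK, CD2, CD6, IL7R, CD79A, MS4A1, CD22, CD48, CD52, CD53 and PTPRC. Among the 18, only CD3D, CD3E, CD48, CD52 and CD53 had a pancreas mean of 1 TPM or more. The others passed the filter only through other tissues, and IKZF3 and POU2F2 only through the parotid library of baboon 5. The count is thus not independent of the filter.

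Fits with a smaller spread gave more calls for pancreas against liver. In a limma fit of these tissues alone, which holds no gland library, 12 of 17 lymphocyte genes were called lower in pancreas (all genes called either way, 34.6%). Of the 17, however, 11 passed the filter through their level in the liver alone and so had to differ, which leaves 6 genes whose pancreas mean was 1 TPM or more. Of those, CD3D, CD3E, CD48, CD52 and CD53 were called lower in pancreas and CD37 was not called. CD3E was at 1.71 ± 0.640 TPM in pancreas and 6.94 ± 1.86 TPM in liver (SD, n = 5), with a log2 fold change of -1.55 (SE 0.19, adjusted p = 0.000213) in the fit of both tissues alone and the same change with an SE of 0.90 and an adjusted p of 0.269 in the fit of all libraries. With only the parotid library of baboon 5 left out, limma called 3 of 23 genes for pancreas against liver, CCR7, CD79A and FCER2 (all genes 19.7%). Of the 23, however, 17 passed the filter only through tissues other than the pancreas, these 3 among them. Of the 6 genes whose pancreas mean was 1 TPM or more, 0 were called in that fit.

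The direction held under other scalings while its size shrank. The median log2 fold change of the 30 genes for pancreas against liver was -0.77, beside -0.44 for all genes tested, and 3 of 30 were above 0 (all genes 23.8%). With TMM scaling of the TPM values, which brings the median of all genes to -0.02, it was -0.50, again with 3 of 30 above 0. Relative to all genes the lymphocyte genes were thus at -0.33 and -0.48 on these scales. On the deposited scale most genes were lower in the pancreas than in the liver. The 6 acinar genes took 150059 to 189806 TPM of a pancreas library, and their part in this shift was not tested.

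**Figure D3:**
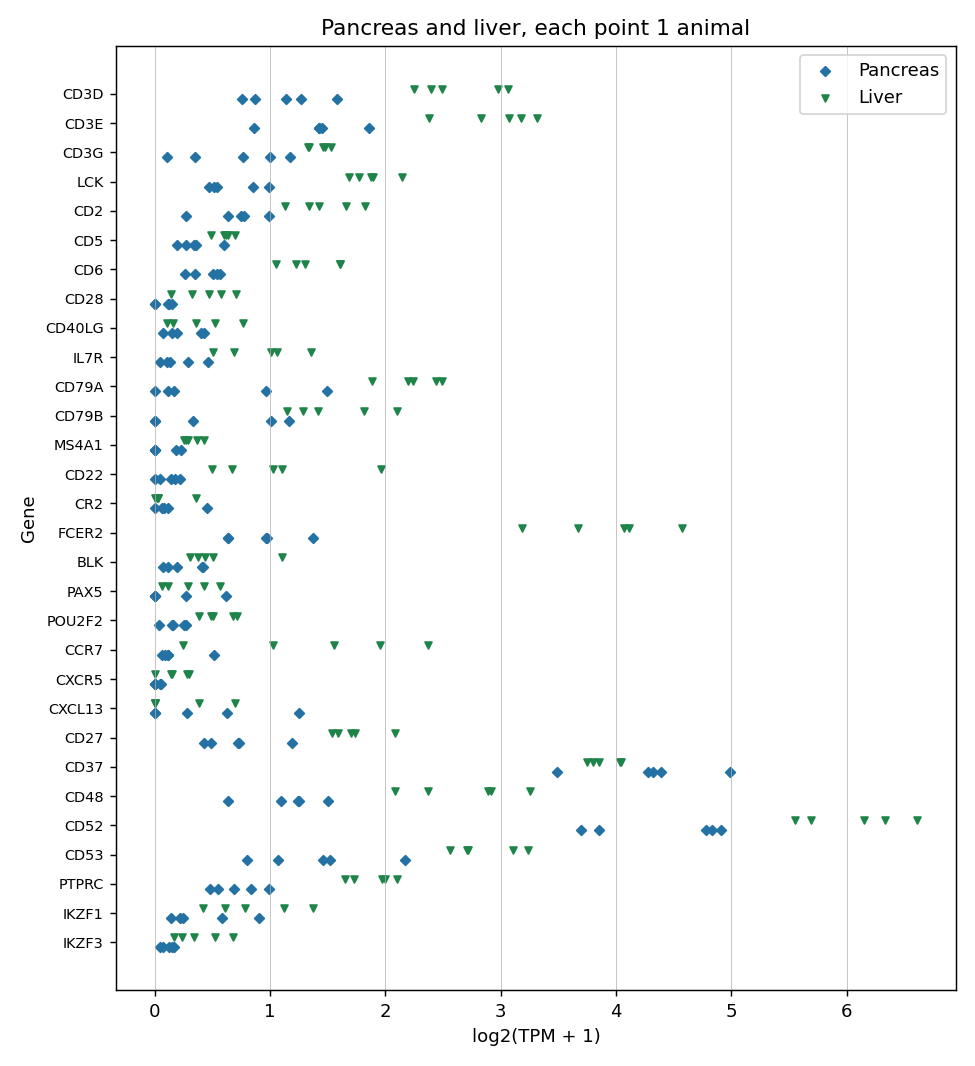
Levels of the lymphocyte genes as log2(TPM + 1) in pancreas and liver, with 1 point per animal and tissue. FCER2 is separated by the widest gap, the CD3 chains and CD79A are lower in every pancreas library than in any liver library, and CD37 is reversed in 4 of 5 animals.

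In the sublingual gland CD52 was higher than in the pancreas, and it was the 1 lymphocyte gene called in that comparison. The means were 175 ± 93.8 and 21.7 ± 8.28 TPM (SD, n = 5), every sublingual library lay above every pancreas library, and limma gave a log2 fold change of 2.81 (SE 0.87, adjusted p = 0.0447, higher in 5 of 5 animals). By limma without the animal as a block the adjusted p was 0.0863, and without the low-value filter 0.0777. Without baboon 1, 3, 4 or 5 it was 0.178, 0.169, 0.0762 or 0.0686, so the call does not hold without them. The share of all genes called fell too, from 9.47% to 2.61%, 3.35%, 3.88% and 6.26% without baboon 1, 3, 4 or 5. CD6, CD79B and FCER2 also lay above the pancreas in every sublingual library, which makes 4 of 30 genes, beside 15.6% of all genes. Of these 4, CD52 alone had a pancreas mean of 1 TPM or more. The others passed the filter through other tissues. The median log2 fold change of the 30 genes was 0.84, beside 0.63 for all genes.

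Leaving out libraries changed the count for sublingual gland against pancreas more than any other. Without the parotid library of baboon 5, whose values enter the pooled spread, limma called 6 of 23 genes, all higher in the sublingual gland: CD3D, CD48, CD5, CD52, CD6 and CD79B (all genes 13%). Without the 4 gland libraries low in AQP5, an alternative chosen after seeing the data, it called 17 of 23 genes higher (all genes 28.2%). In both of these fits 17 of the 23 genes passed the filter through tissues other than the pancreas alone. Of the 6 genes whose pancreas mean was 1 TPM or more, CD3D, CD48 and CD52 were called in the former fit, and CD3D, CD3E, CD48, CD52 and CD53 in the latter. The sublingual gland is then represented by baboons 1, 3 and 5, in which CD3D was at 17.1, 16.5 and 15.7 TPM, against 1.03 and 3.40 TPM in the libraries left out. That fit gave CD3D a log2 fold change of 3.00 (SE 0.52, adjusted p = 0.000705 by limma). In the sublingual libraries left out, of baboons 2 and 4, muscle or mucosa genes were at 97058 and 18583 TPM. The sublingual library of baboon 1, which was kept, held mucosa genes at 77038 TPM beside CD3D at 17.1 TPM. The part of muscle and mucosa in the lymphocyte levels was not tested.

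Parotid and submandibular gland against pancreas gave no calls. For parotid against pancreas the median log2 fold change of the 30 genes was 1.36, beside 0.45 for all genes, and 29 of 30 were above 0, as were 78.7% of all genes. These values include the parotid library of baboon 5, through which alone 7 of the 30 genes passed the filter. CD79A was higher in the parotid of 5 of 5 animals (log2 fold change 2.19, SE 0.83, adjusted p = 0.162 by limma), with means of 69.2 ± 151 and 0.596 ± 0.786 TPM (SD, n = 5). Without the parotid library of baboon 5 the parotid mean of CD79A was 1.87 TPM, and limma called 0 of 23 genes (all genes 4.05%). In a fit of parotid and pancreas alone limma called 7 of 30 genes, all higher in parotid (all genes called either way, 4.38%), but 24 of the 30 passed the filter through the parotid alone. For submandibular gland against pancreas the median was 0.54, beside 0.17, and CD79A was the 1 gene of the 30 with no overlap, beside 4.3% of all genes higher without overlap. The pancreas mean of CD79A was under 1 TPM, so it passed the filter through other tissues.

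Without the parotid library of baboon 5 the sublingual gland had the highest tissue mean for 22 of the 30 genes, the submandibular gland for 3, and the parotid and the liver for 2 each. The pancreas had the lowest tissue mean for 24 of them and the parotid for 6. The single gene with its highest mean in the pancreas was CD37. Shares over all genes were not computed for these counts. Over 25 libraries the median log2 fold change of all genes was 0.63 for sublingual gland against pancreas. It was -0.44 for submandibular and -0.17 for parotid against sublingual gland. A sublingual mean can rest on 1 library, as for CXCL13 at 0, 0, 1.35, 1.51 and 30.1 TPM. In the fit without the parotid library of baboon 5 limma called 0 of 23 genes in each comparison between glands. Almost no gene of any kind was called there (0% to 0.0884% of all genes), so this cannot show that the glands are alike. Without the 4 gland libraries low in AQP5, CD5 was called lower in parotid than in sublingual gland (all genes 3.34%). In that fit CD3D, CD3G and CD5 were called lower in submandibular than in sublingual gland (2.04%). The direction of submandibular gland against liver depended on the scale, with a median of -0.22 as deposited and 0.02 with TMM scaling.

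CD37, CD6 and FCER2 departed from the other lymphocyte genes, each in its own libraries. CD37, a tetraspanin best known from B cells, was at 18.3, 30.8, 20.0, 19.0 and 10.2 TPM in the pancreas of baboons 1 to 5 and at 15.5, 12.4, 13.0, 13.5 and 15.4 TPM in the liver. CD53, a tetraspanin of leukocytes in general, was at 0.746, 3.51, 1.76, 1.10 and 1.87 TPM in the pancreas and at 4.90, 5.59, 5.53, 8.43 and 7.60 TPM in the liver. The ratio of CD37 to CD53 was 5.47 to 24.6 in the pancreas (median 11.4) and 0.469 to 3.16 in the other 20 libraries (median 1.55), with no overlap. The ratio does not depend on how libraries are scaled, and it shows unequal change of the pair, not which of them changed. CD37 itself was not called between pancreas and liver (log2 fold change 0.40, SE 0.80, adjusted p = 0.814 by limma).

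CD6, a T cell receptor for adhesion ligands, was at 24.9, 0.493, 1.37, 18.9 and 1.68 TPM in the sublingual glands of baboons 1 to 5. In the sublingual library of baboon 4 it was 7.09 times CD3E, while in the other 24 libraries that ratio was 0.0938 to 0.583, the highest of these being the sublingual library of baboon 1. Both libraries held stratified mucosa genes, at 18583 and 77038 TPM in sum, against at most 496 TPM in the other 23. The part of mucosa in the CD6 level was not tested.

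FCER2 was at 101, 63.6 and 182 TPM in the parotid of baboon 2, the submandibular library of baboon 2 and the parotid library of baboon 5. In the parotid library of baboon 2 it was 30.3 times the sum of CD79A and CD79B, with CD79A at 1.69 TPM. That library held summed macrophage genes at 1815 TPM and adipocyte genes at 21274 TPM, and their part in the FCER2 level was not tested. In the liver FCER2 was 1.13 to 4.34 times the CD79 sum, and there its 5 libraries lay above all 5 sublingual libraries, as for 9.24% of all genes. It was not called between liver and sublingual gland (log2 fold change of -1.52 for sublingual gland against liver, SE 0.92, adjusted p = 0.301 by limma).

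**Figure D4:**
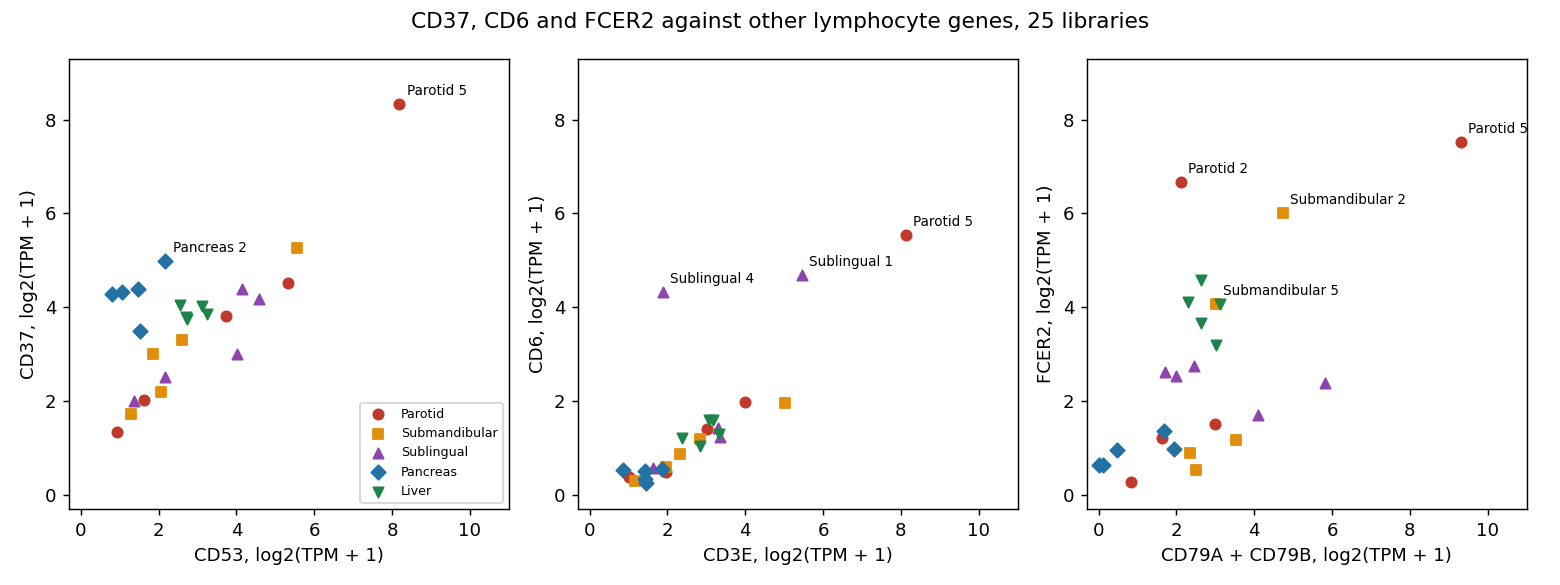
Pairs of levels as log2(TPM + 1), CD37 against CD53, CD6 against CD3E, and FCER2 against the sum of CD79A and CD79B, with 1 point per library coloured by tissue. The 5 pancreas libraries form a group of their own in the CD37 panel, the sublingual library of baboon 4 stands off in the CD6 panel, and the parotid library of baboon 2 in the FCER2 panel.

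Baboon 5 was high for a few B cell and homing genes beyond its parotid. Across the 4 tissues other than parotid, baboon 5 had the highest value of the 5 animals in at least 3 tissues for 5 of 30 genes, CD22, CR2, BLK, CCR7 and CXCL13, beside 3.11% of all genes tested. CXCL13 was highest in baboon 5 in 4 of 4 tissues, as were 0.36% of all genes. Baboon 2 was highest in at least 3 of these tissues for CD3E and MS4A1, beside 10.2% of all genes, and baboons 1, 3 and 4 for 0 of 30 (5.54%, 0.967% and 0.494% of all genes). Several of these levels were below 1 TPM, the genes were not chosen independently of the library that stands apart, and the sex of baboon 5 and the animal itself cannot be told apart.

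The lymphocyte genes followed one another closely over libraries, but much of this came from a single library. The Pearson correlation of a gene's log2(TPM + 1) with the mean of the other lymphocyte genes had a median of 0.911 (0.703 for FCER2 to 0.967 for CD3G) over 25 libraries, and of 0.741 (0.360 for CXCL13 to 0.954 for CD48) over the 24 without the parotid library of baboon 5. Outside the 30, genes among the 10 most like their mean over 25 libraries were S1PR4 (r = 0.966), JAK3 (0.965), GMIP (0.963), GRAP2 (0.963), RELT (0.962), DOCK2 (0.962), SASH3 (0.961), MYO1G (0.961) and FCMR (0.960). Over the 24 they were CORO1A (0.967), IL2RG (0.950), MYO1G (0.931), CLEC2D (0.928), PTPRCAP (0.926), RAC2 (0.920), TBC1D10C (0.919), PSTPIP1 (0.918), CXCR4 (0.917) and PIM2 (0.909). Of the top 10, MYO1G was in both orders. These are descriptions over libraries that share animals, tissues and section makeup.

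Other T and B cell genes were tested in the same fit, with the shares of all genes called as given above for each comparison. Of 21 other T cell genes limma called 2 higher in parotid than in pancreas (all genes 3.82%), the co-receptor CD4 and the transcription factor GATA3, and 1 higher in sublingual gland than in pancreas (9.47%), GATA3. Against liver 1 of 21, FOXP3, was lower in each other tissue: pancreas (17.5%), sublingual gland (15.4%), submandibular gland (16.5%) and parotid (13.8%), comparisons that share the liver libraries, and CD4 was higher in parotid. FOXP3, the factor of regulatory T cells, was at 19.5, 14.8, 19.8, 26.6 and 22.2 TPM in the liver of baboons 1 to 5, at 0.358 to 0.771 TPM in the pancreas and at no more than 5.05 TPM in any gland library, that being the parotid of baboon 5. Its log2 fold change by limma was -3.74 for pancreas against liver (SE 0.34, adjusted p = 7.49e-09) and -3.43 for parotid against liver (SE 0.34, adjusted p = 3.58e-08). Its pancreas levels were all under 1 TPM, so it passed the filter through other tissues. In the liver the CD3 chains summed to 11.4, 15.4, 16.0, 14.2 and 13.1 TPM for baboons 1 to 5. Which cells gave the FOXP3 level was not tested. CD3E, by contrast, was highest in the parotid of baboon 5 and overlapped between glands and liver.

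Of 17 other B cell genes tested, 1 was higher in parotid than in pancreas and than in liver (CIITA, the activator of MHC class II genes). CD24, a surface protein that epithelial cells also carry, was higher in pancreas and in sublingual gland than in liver, and the adaptor BLNK was lower in pancreas and in submandibular gland than in liver. Between submandibular gland and pancreas, and in the 3 comparisons between glands, limma called 0 of the 21 and 0 of the 17.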

How the data were processed

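RNA came from tissue sections, was treated with DNase and was sequenced from both ends (Illumina HiSeq), per the labels' protocols. The deposited values are TPM per gene, and the deposited table names kallisto as their source. The submitters' processing notes also list FastQC, MultiQC, cutadapt, HISAT2, SAMtools, featureCounts and DESeq2. The kallisto version, index and genome build are not given in the sources used here, so no coordinates are given. TPM keeps no depth, and a few very high genes in a library lower all others.

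Rows were matched by symbol. Libraries were grouped by labelled tissue and animal. Genes whose mean reached 1 TPM in some tissue (14991) entered limma 3.58.1 in R 4.3.3 (trend, pseudocount 1 TPM, tissue and animal as terms), and the script was tested on simulated data. A fold change is on the log2(TPM + 1) scale, which understates the change of low genes. The animal is the replicate block, since libraries with 1 number come from 1 animal. Deviations from tissue means correlated at a mean of 0.161 within animals and -0.04 between them.

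Alternatives were no block, TMM (trimmed mean of log ratios) and median-of-ratios scaling, no filter (20524 genes), a filter at 5 TPM (9835 genes), a pseudocount of 0.1, only the tissues compared, and leaving out each animal. Other values were computed with Python 3.11.15. All 31 lymphocyte genes are named, and of every other list up to 4 genes by mean level, the genes called where 5 or fewer, and those stated as chosen afterwards. The lymphocyte genes and all lists were chosen with earlier results of these data known. A few genes that this naming rule covers are not reported here.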

Additional observations from a re-analysis of the deposited data

Results flagged for a closer look

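In 116 groups of 5 libraries (a lymphocyte gene in a tissue), 31 had 1 library further from the others than Dixon's 95% critical value allows. Chance flags about 1 in 20 groups, and groups that share a library are not independent.

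In the parotid 18 genes had baboon 5 as the high library. They were CD5 (31.2 TPM), CD28 (19.5), CD40LG (17.1), IL7R (39.1), CD79A (338), CD79B (292), MS4A1 (58.4), CD22 (24.8), CR2 (48.7), BLK (116), PAX5 (8.28), POU2F2 (16.0), CCR7 (49.5), CXCR5 (25.4), CXCL13 (309), CD27 (93.9), IKZF1 (30.3) and IKZF3 (13.3), all in TPM.

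In the submandibular gland 8 genes had baboon 2 as the high library, with CD5 at 4.39 TPM, CD28 at 2.28, IL7R at 2.74, MS4A1 at 6.37, CD22 at 1.01, BLK at 1.84, CCR7 at 3.52 and CXCR5 at 3.65 TPM. In the sublingual gland 4 genes had baboon 5 as the high library, with CD22 at 1.12 TPM, CR2 at 1.79, BLK at 4.49 and CXCL13 at 30.1 TPM. In the liver BLK was high in baboon 5, at 1.15 TPM. No pancreas library was found in this way.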

How the results depend on the processing

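Counts of called lymphocyte genes differed between settings, and are given here with the share of all genes called. For sublingual gland against pancreas (1 as reported) the count was 3 with TMM (10.8%), with median-of-ratios scaling (11%), each including CD37 as lower, or with a pseudocount of 0.1 (12.2%). It was 0 without the low-value filter (5.11%), 4 of 21 with only these tissues (9.65%), 6 of 23 without the parotid library of baboon 5 (13%) and 17 of 23 without the 4 gland libraries low in AQP5 (28.2%). For pancreas against liver (1 as reported) it was 3 with a pseudocount of 0.1 (19%), 12 of 17 with only these tissues (34.6%), 3 of 23 without that parotid library (19.7%) and 7 of 23 without the 4 (24.4%), all lower in pancreas. For parotid against pancreas (0) it was 3 with TMM (8.11%), 2 with median-of-ratios (8.18%), 1 with a pseudocount of 0.1 (5.06%) and 7 with only these tissues (4.38%), all higher in parotid. For submandibular gland against pancreas (0) it was 1 with a pseudocount of 0.1 (5.37%), 1 of 17 with only these tissues (5.2%), 1 of 23 without that parotid library (4.96%) and 2 of 23 without the 4 (6.85%), all higher. For sublingual gland against liver (0) it was 1 with TMM (20.2%) or median-of-ratios scaling (20.4%), 2 of 23 with only these tissues (14.8%; CD5 higher and FCER2 lower), 1 of 23 without that parotid library (16.8%) and 6 of 23 without the 4 (22.7%). For parotid against liver (0) it was 1 with only these tissues (CXCL13 higher, 13.5%) and 1 of 23 without the 4 (FCER2 lower, 22.8%). In the former, CXCL13 passed the filter only through the parotid library of baboon 5 (309 TPM). Its other parotid values were at most 0.592 TPM and its liver mean was 0.186 TPM. Without the 4 the count was 1 for parotid (3.34%) and 3 for submandibular gland (2.04%) against sublingual gland, all lower. In the fits with a low-value filter, genes under it in the pancreas entered the comparisons with pancreas only through other tissues. Likewise CD5, CXCL13 and IL7R, with liver means of 0.528, 0.186 and 0.940 TPM, entered the comparisons with liver only through other tissues. Their calls are thus not independent of the filter. The cause of the differences between settings was not tested.

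Without the animal as a replicate block the counts for sublingual gland against pancreas (all genes 7.25%) and for pancreas against liver (15.8%) were both 0, and the block changed no other count. Leaving out 1 animal at a time gave 0 to 5 calls for sublingual gland against pancreas, with 5 of 30 without baboon 2 (all genes 20.5%). For pancreas against liver it gave 0 to 2, with 2 of 20 without baboon 5 (16.3%). For submandibular gland against pancreas it gave 0 to 1, with 1 of 20 without baboon 5 (4.09%). The range was also 0 to 1 for sublingual gland against liver and for submandibular against sublingual gland. Each had 1 of 30 without baboon 2 (20.3% and 17.8%). The count was 0 for the other 5 comparisons (0% to 24.2% of all genes). CD52 and FCER2 kept their direction in all 14 alternatives, with log2 fold changes of 2.03 to 3.52 and -3.89 to -2.53. CD52 kept its call in 8 of them and FCER2 in 10.

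The mean summed level in the pancreas, 55.4 ± 16.7 TPM (SD, n = 5), came to 74.8 with TMM and 76.2 with median-of-ratios scaling, while that in the parotid, 1204 TPM, came to 531 and 512. The parotid mean was 185 TPM without baboon 5, and the submandibular mean, 211 TPM, was 79.99 TPM without baboon 2. Depth is unknown, so the error of levels under 1 TPM cannot be given, and libraries of 1 tissue differ in what their sections held.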
